A study of Mus musculus with 15 samples.

Results

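A set of 9 genes that mark the birth of neurons and their first steps of maturation were followed in mouse forebrain RNA: Dcx, Eomes, Neurod1, Igfbpl1, Sox11, Sox4, Dlx1, Dlx2 and Cd24a. They were chosen by name, and each was found once among the 55487 gene identifiers of the count table, so that 9 of 55487 genes are described. Frozen forebrain of wild-type mice (genotype WT) gave the RNA, which was sequenced in bulk in 15 libraries, 3 in each of 5 groups. NT was untreated. PLX1X received what the labels call PLX 1x, and PLX3X_CD0 what they call PLX 3x. PLX3X_CD30 has this library name but is titled only as PLX treated, so its place beside the 3x group rests on that name. IR_BMT is titled IR-BMT, with IR as its treatment and in its library names. The labels spell out none of these abbreviations and give no age, sex, dose or donor, and they do not say whether replicates were separate animals, so p-values measure only the spread between these libraries. The series title concerns macrophages that enter the brain from blood and skull bone marrow.

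New neurons are made in the adult mouse forebrain in the subventricular zone, whose neuroblasts migrate along the rostral migratory stream into the olfactory bulb, and in the dentate gyrus of the hippocampus. Neural stem cells give rise to dividing progenitors, which become migrating neuroblasts and then immature neurons, and transcription factors of the Dlx family direct the GABAergic branch while Eomes and Neurod1 act in the glutamatergic branch. Several of these genes also stay on in mature neurons: Eomes in projection neurons of the olfactory bulb, Neurod1 in excitatory neurons, and Dlx1 in interneurons. In bulk tissue, fewer cells of a type and less RNA per cell cannot be told apart.

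The promoters of Sox11 and Sox4 are shown because Sox11 was called lower in IR_BMT against NT and its sister gene Sox4 was not. Those of Dlx1 and Dlx2 are shown because these neighbours varied together, and that of Dcx because it is the usual marker of neuroblasts. Each is the 250 bases before a start listed by RefSeq on GRCm38.p6 (for Dcx the first of 2), 5′ to 3′ on the gene's strand, and 7 of the 9 genes were matched (all but Igfbpl1 and Cd24a). The windows lie at chr12:27342719-27342968 (minus strand), chr13:28953700-28953949 (minus strand), chr2:71529195-71529444 (plus strand), chr2:71546755-71547004 (minus strand) and chrX:143933220-143933469 (minus strand). These starts can differ from the ends of the GENCODE gene spans given with each gene further on: all 250 bases of the Dlx1 window lie inside its GENCODE span, as do 92 bases of the Dcx window and 14 of the Sox4 window. Capitals mark matches, on either strand, to the E-box CAGNTG, the CCAAT box CCAAT, the TATA box TATAAA and the homeodomain core TAATTA.
Sox11: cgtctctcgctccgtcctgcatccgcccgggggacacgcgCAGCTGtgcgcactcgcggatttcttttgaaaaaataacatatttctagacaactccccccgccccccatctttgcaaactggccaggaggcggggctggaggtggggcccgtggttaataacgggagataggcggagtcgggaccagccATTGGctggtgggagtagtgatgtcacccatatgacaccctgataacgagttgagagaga
Sox4: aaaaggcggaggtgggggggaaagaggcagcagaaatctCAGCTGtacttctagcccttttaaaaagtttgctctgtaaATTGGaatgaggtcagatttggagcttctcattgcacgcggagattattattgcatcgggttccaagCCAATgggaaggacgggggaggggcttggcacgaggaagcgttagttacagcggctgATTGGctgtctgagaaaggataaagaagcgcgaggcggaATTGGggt
Dlx1: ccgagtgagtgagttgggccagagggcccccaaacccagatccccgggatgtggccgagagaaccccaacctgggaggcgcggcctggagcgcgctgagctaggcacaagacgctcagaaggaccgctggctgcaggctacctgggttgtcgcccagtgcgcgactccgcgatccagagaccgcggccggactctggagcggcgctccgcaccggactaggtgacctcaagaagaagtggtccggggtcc
Dlx2: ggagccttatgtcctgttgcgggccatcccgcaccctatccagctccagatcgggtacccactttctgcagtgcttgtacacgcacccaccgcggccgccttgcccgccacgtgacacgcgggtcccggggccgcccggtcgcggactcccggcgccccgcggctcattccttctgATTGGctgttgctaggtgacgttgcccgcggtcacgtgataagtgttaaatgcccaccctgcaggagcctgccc
Dcx: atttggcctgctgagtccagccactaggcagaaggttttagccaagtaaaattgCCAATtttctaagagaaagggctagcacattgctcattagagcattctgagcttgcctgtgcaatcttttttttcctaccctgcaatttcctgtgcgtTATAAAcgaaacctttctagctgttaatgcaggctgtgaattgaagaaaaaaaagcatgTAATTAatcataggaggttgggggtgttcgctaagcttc
Sox11 and Sox4 both held the E-box form CAGCTG, at 210 and 211 bases before the start, and the E-box occurred in 44.8% of all 32817 windows of this length. CCAAT occurred in 5 of the 7 genes and in 33.8% of all windows, with 4 matches in Sox4 and 1 in Sox11. Among the 7 genes, TAATTA (4.85% of all windows) and TATAAA (12.4%) were found in Dcx alone. The Sox core AACAAT (9.42% of all windows) and the T-box half-site GGTGTGA (3.33%) were found in none of the 7, and no marked motif occurred in the Dlx1 window. GC content was 68.0% for Dlx1, 66.4% for Dlx2, 58.0% for Sox11, 50.8% for Sox4 and 41.6% for Dcx, against a median of 52.4% over all windows. CAGNTG reads on both strands as CAGNTG or CANCTG, and none of the searched motifs contains another. A match of letters is a description of the window and not of a bound site.

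Total counts per library ran from 19249641 (NT replicate 1) to 54801136 (PLX3X_CD0 replicate 3), and 21780 genes, among them all 9, had enough counts to be tested. The libraries differed in how much olfactory bulb RNA they held. The summed level of 7 olfactory bulb neuron markers (Cdhr1, Tbx21, Doc2g, Th, Shisa3, Nmb and Lhx5) ranged from 14.8 to 246 CPM, the counts of a gene scaled to a common library total. It was 14.8, 25.5 and 225 in NT, 62.5, 33.6 and 28.8 in PLX1X, 20.5, 246 and 49.7 in PLX3X_CD0, 25.2, 24.3 and 90.3 in PLX3X_CD30, and 19.4, 111 and 130 CPM in IR_BMT. The 5 libraries above 2 times the median (NT replicate 3, PLX3X_CD0 replicate 2, PLX3X_CD30 replicate 3 and IR_BMT replicates 2 and 3) are called olfactory-rich below. Because most of the 9 genes moved with this level within groups, a second fit took the log2 olfactory bulb level as a covariate, an analysis chosen after seeing the data. Tests are given by group means alone and, for some genes and lists only, again with the covariate. The covariate has a single slope per gene, shared by all groups. A slope that differs between groups can then appear as a group difference. A fit without the olfactory-rich libraries keeps only 1 IR_BMT library, which limits what a lost or kept call can show. CPM values are scaled by TMM factors throughout.

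In IR_BMT against NT, Sox11 and Cd24a fell and the other 7 genes did not pass the test, edgeR's quasi-likelihood test with Benjamini-Hochberg adjustment at 0.05. Sox11 fell by 0.86 ± 0.13 (SE) and Cd24a fell by 1.00 ± 0.27 on the log2 scale. With the olfactory bulb covariate, Dcx, Igfbpl1 and Dlx2 passed as well, all lower, so that 5 of 9 were called. The comparison changed much of the transcriptome: 30.6% of all genes tested were called. Called lower were 15.4% of all genes tested and called higher 15.1%. With the covariate 33.8% of all genes tested were called, 16.9% lower and 17% higher. The share of the 9 called lower, 2 of 9, is near that background; with the covariate it was 5 of 9. By fold change, 7 of the 9 were below 0 and 2 above, with a median of -0.37 against -0.05 for all genes tested. With the covariate the medians were -0.46 and -0.04. The counts describe the 9 genes and were not tested as a group.

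**Figure D1:**
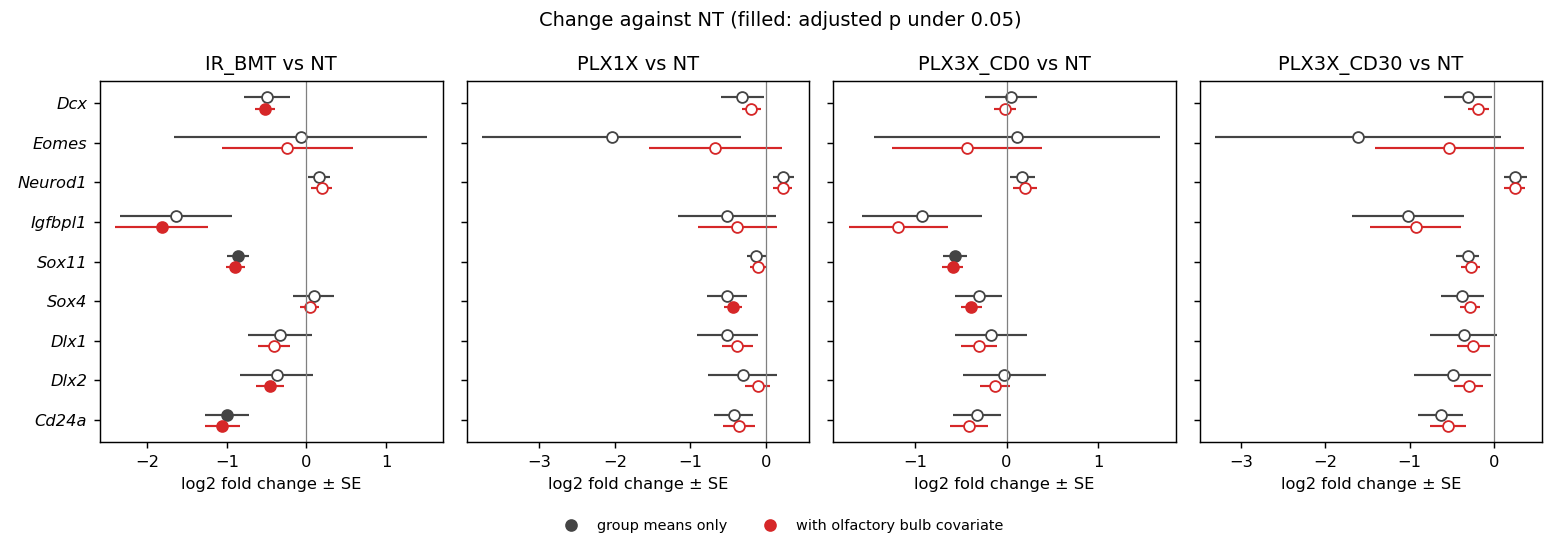
Log2 fold change against NT (x axis, bars: SE) of each of the 9 genes in IR_BMT, PLX1X, PLX3X_CD0 and PLX3X_CD30, from group means only (grey) and with the olfactory bulb covariate (red); filled points have an adjusted p under 0.05. Sox11 and Cd24a are filled in both fits for IR_BMT, and the bars of Eomes, Dlx1, Dlx2, Dcx and Sox4 are shorter with the covariate.

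Sox11, a transcription factor of the SoxC family that promotes the neuronal programme in neuroblasts and newborn neurons (ENSMUSG00000063632, mm10 chr12:27334264-27342574, minus strand), stood at 16.1, 14.1 and 20.0 CPM in NT and at 8.29, 10.7 and 8.74 CPM in IR_BMT. The 3 IR_BMT libraries all lay below the 3 NT libraries; 21.2% of all genes tested were lower in IR_BMT without overlap. Means were 16.7 ± 2.97 CPM in NT and 9.24 ± 1.28 CPM in IR_BMT (SD, n = 3 each), and the adjusted p was 9.12e-05 (edgeR quasi-likelihood; 95% interval of the log2 change -1.14 to -0.58). With the covariate the log2 change was -0.89 (adjusted p = 5.60e-06), and over all alternatives the adjusted p lay between 2.56e-11 and 0.0038. The olfactory-rich IR_BMT libraries held 10.7 and 8.74 CPM and the other held 8.29 CPM, all below the lowest NT library. Across the 15 libraries Sox11 had r = 0.04 with the log2 olfactory bulb level, and 0.57 once group means were removed.

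Cd24a, which encodes a surface glycoprotein of neuroblasts and also of ependymal and blood cells (ENSMUSG00000047139, chr10:43578284-43584265, plus strand), measured 5.67, 3.52 and 7.26 CPM in NT and 2.30, 3.06 and 2.89 CPM in IR_BMT. All 3 IR_BMT libraries were below all 3 NT libraries. The means were 5.48 ± 1.88 and 2.75 ± 0.40 CPM (SD, n = 3), with an adjusted p of 0.00988 by edgeR's quasi-likelihood test and 0.000756 with the covariate (log2 change -1.06). Over the alternatives the adjusted p ran up to 0.106. The call was lost without NT replicate 3 (log2 change -0.71, edgeR adjusted p = 0.0626). It was also lost with an offset on the length and GC content of transcripts (-0.69, 0.106). Without the 5 olfactory-rich libraries, with 1 IR_BMT library left, Cd24a was not called either (log2 change -0.97). Of the lists for ependymal, choroid plexus, erythroid and white blood cells no gene was called: 0 of 7 ependymal genes (list median log2 change -0.69), 0 of 7 choroid plexus genes (1.16), 0 of 6 erythroid genes (-0.90) and 0 of 4 tested lymphocyte and neutrophil genes (-0.01). The ependymal count became 2 lower without NT replicate 2, 1 lower without NT replicate 3 and 4 lower with no filter on low counts, where 5 erythroid genes were also lower. Without the olfactory-rich libraries 1 lymphocyte and neutrophil gene was lower. Ependymal markers summed to 14.9 to 46.4 CPM in NT and 16.1 to 17.4 CPM in IR_BMT, the NT maximum in replicate 1, and their median was -0.01 without that library. Erythroid markers summed to 27.2 to 81.5 CPM in NT and 18.6 to 35.2 CPM in IR_BMT. Lymphocyte and neutrophil markers summed to 0.788 to 2.83 CPM over the 15 libraries, and Cd3e and Ms4a1 were among the genes of this list too low to be tested. Choroid plexus markers reached 504 CPM in IR_BMT replicate 1, the library with the lowest Cd24a. What part the ependymal and erythroid levels play in the Cd24a difference was not tested.

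Dcx, the microtubule-binding protein doublecortin of migrating neuroblasts (ENSMUSG00000031285, chrX:143855842-143933311, minus strand), measured 15.0, 17.6 and 33.0 CPM in NT and 15.5, 16.1 and 15.4 CPM in IR_BMT. The groups overlapped, and the NT mean rested on replicate 3, an olfactory-rich library. Means were 21.9 ± 9.75 and 15.7 ± 0.39 CPM (SD, n = 3), and the log2 change of -0.50 ± 0.29 did not pass (edgeR quasi-likelihood adjusted p = 0.225). Without NT replicate 3 the change was -0.06. With the covariate it was -0.52 ± 0.13 (adjusted p = 0.00378; range over the alternatives 1.37e-05 to 0.874). Among the 5 olfactory-rich libraries Dcx stood at 33.0, 31.9 and 21.3 CPM in the NT, PLX3X_CD0 and PLX3X_CD30 libraries and at 16.1 and 15.4 CPM in the IR_BMT libraries. Among the 10 other libraries it stayed between 15.0 and 18.7 CPM, with the IR_BMT library at 15.5 CPM. Without the 5 olfactory-rich libraries the log2 change against NT was -0.07. Within IR_BMT, Dcx did not rise with the olfactory bulb level, while the covariate fit assumes the same slope in all groups. Whether IR_BMT differs from NT in the level or in the slope of Dcx was not tested.

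Igfbpl1, an IGF-binding-like protein expressed by neural progenitors and neuroblasts (ENSMUSG00000035551, chr4:45809468-45826923, minus strand), was the weakest of the 9 per length. It stood at 2.62, 0.693 and 2.88 CPM in NT and at 0.347, 1.28 and 0.341 CPM in IR_BMT. The groups overlapped through NT replicate 2 and IR_BMT replicate 2. The log2 change was -1.63 ± 0.70 (edgeR quasi-likelihood adjusted p = 0.1001), and it passed with the covariate (-1.82, 0.0271), without NT replicate 2 (-2.05, 0.0321) and without IR_BMT replicate 2 (-2.56, 0.0310). Over the alternatives the adjusted p ran from 7.83e-06 to 0.278.

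Dlx1 and Dlx2 encode homeodomain factors of the GABAergic lineage and lie 9426 bases apart on chromosome 2 (ENSMUSG00000041911, chr2:71528113-71533981, plus strand, and ENSMUSG00000023391, chr2:71543408-71546754, minus strand). Dlx1 measured 38.8, 29.5 and 68.6 CPM in NT and 29.5, 41.8 and 38.0 CPM in IR_BMT. Dlx2 measured 10.8, 8.87 and 24.2 CPM in NT and 7.60, 13.0 and 13.7 CPM in IR_BMT. In both genes the groups overlapped and NT replicate 3 was the highest of the 6 libraries. Neither passed by group means (log2 change of Dlx1 -0.33 ± 0.40, adjusted p = 0.584; edgeR quasi-likelihood). The log2 change of Dlx2 was -0.37 ± 0.46 (0.596). With the covariate Dlx2 was lower, at -0.46 ± 0.17 (adjusted p = 0.0499, just inside the threshold; range over the alternatives 0.0124 to 0.869), and Dlx1 at -0.41 ± 0.20 did not pass (0.151). Without NT replicate 3 both values were above 0, at 0.24 for Dlx2 and 0.11 for Dlx1. The pair followed each other closely over the 15 libraries, with r = 0.93 in log2 CPM and 0.97 after group means were removed. Dlx1 lies wholly within the antisense gene Dlx1as, to which 913 counts were assigned against 24631 for Dlx1 over all libraries; the library kit does not mark strand, so their reads cannot be told apart.

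Eomes, the T-box factor of intermediate progenitors and of olfactory bulb projection neurons (ENSMUSG00000032446, chr9:118478212-118486132, plus strand), varied most, 217-fold over the 15 libraries. It stood at 1.81, 0.223 and 12.1 CPM in NT and at 0.0631, 5.96 and 7.85 CPM in IR_BMT. Within each of NT and IR_BMT the olfactory-rich libraries were the high ones, and the groups overlapped (log2 change -0.07 ± 1.59, 95% interval -3.60 to 3.45, edgeR quasi-likelihood adjusted p = 0.980).

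Neurod1, a basic helix-loop-helix factor of newborn glutamatergic neurons (ENSMUSG00000034701, chr2:79452521-79456751, minus strand), had the narrowest range over the 15 libraries, 1.63-fold, at 10.1, 10.2 and 7.85 CPM in NT and 10.3, 11.2 and 9.63 CPM in IR_BMT. The groups overlapped and the log2 change was 0.16 ± 0.14 (95% interval -0.13 to 0.44, edgeR quasi-likelihood adjusted p = 0.431). It passed, higher, only with the offset for length and GC content (0.40, adjusted p = 0.0360; range over the alternatives 0.0360 to 0.954). Neurod1 lies within the gene Cerkl on the same strand, which holds 855 counts against 6556, and overlaps Gm26755.

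Sox4, the other SoxC factor shown above and a gene of progenitors and young neurons (ENSMUSG00000076431, chr13:28948919-28953713, minus strand), was not called lower as Sox11 was. It measured 40.9, 32.4 and 63.9 CPM in NT and 43.1, 52.4 and 51.6 CPM in IR_BMT. The groups overlapped, and the log2 change was 0.09 ± 0.26 (95% interval -0.48 to 0.66; edgeR quasi-likelihood adjusted p = 0.827) or 0.04 ± 0.12 with the covariate (0.844). Across the 15 libraries Sox4 and Sox11 had r = -0.03, and 0.70 once group means were removed. Sox4 shares 2753 of its 4795 bases with Gm26735 on the opposite strand. The library kit does not mark strand, so their reads cannot be told apart there. The difference between the changes of Sox11 and Sox4 was not tested.

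**Figure D2:**
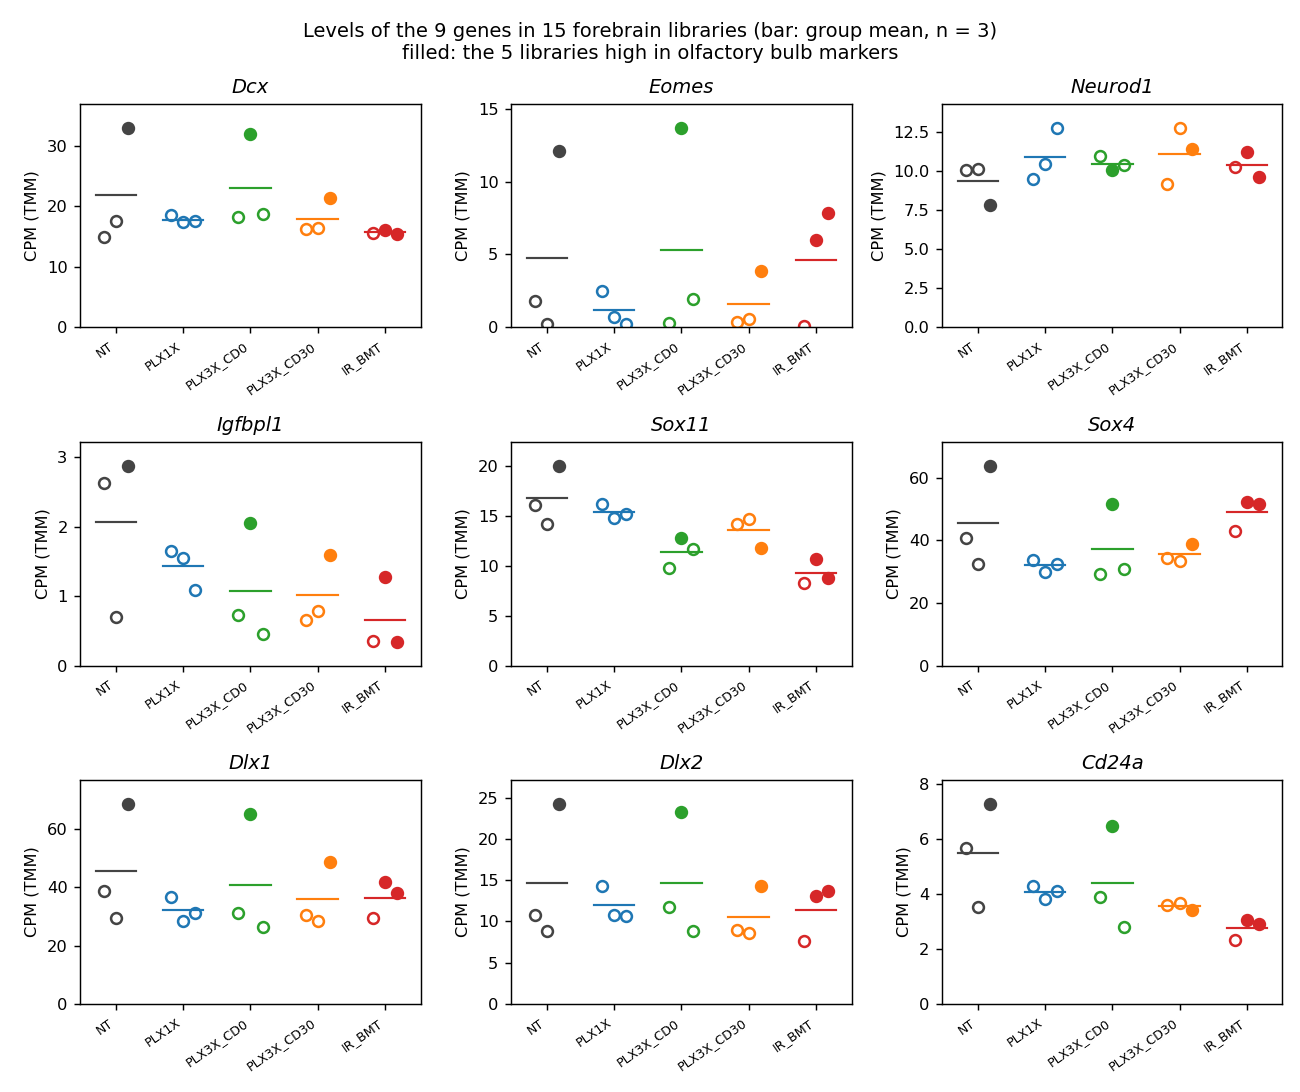
CPM (y axis, linear from 0) of each of the 9 genes in the 15 libraries by group; each point is 1 library, the line is the group mean (n = 3), and filled points are the 5 olfactory-rich libraries. The filled NT and PLX3X_CD0 points stand far above the open ones for Dcx, Eomes, Dlx1 and Dlx2, while the 3 IR_BMT points of Sox11 and Cd24a lie under all NT points.

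Most of the 9 genes rose and fell with the olfactory bulb level of the library. Over the 15 libraries, Pearson's r with the log2 olfactory bulb level was 0.89 for Eomes, 0.86 for Dlx2, 0.81 for Dlx1, 0.73 for Sox4 and 0.72 for Dcx, and lower for Cd24a (0.35), Igfbpl1 (0.33) and Sox11 (0.04). Neurod1 went the other way (-0.38). After group means were removed the values were 0.91 for Dlx2, 0.89 for Eomes, 0.87 for Dcx and Sox4, 0.86 for Dlx1, 0.63 for Cd24a, 0.58 for Igfbpl1, 0.57 for Sox11 and -0.43 for Neurod1. These are descriptions over 15 libraries that differ in depth, and each library's values share its depth and tissue piece; the median over all genes tested was -0.02. For each doubling of the olfactory bulb level the fitted level rose by 1.37 log2 units in Eomes, 0.34 in Dlx2, 0.28 in Dlx1, 0.21 in Dcx and 0.18 in Sox4. With the covariate the biological coefficient of variation, the spread between libraries of a group, was 10.5% instead of 23.8% for Dcx, 13.9% instead of 37.8% for Dlx2, 9.90% instead of 21.6% for Sox4 and 9.60% instead of 11.7% for Sox11. The median over all genes tested was 11.3% instead of 13.3%. Eomes kept the widest spread, 78.5% instead of 134%. The 28 pairs among the 8 genes other than Neurod1 had within-group r between 0.51 and 0.97, and Neurod1 had r between -0.43 and -0.09 with the others.

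**Figure D3:**
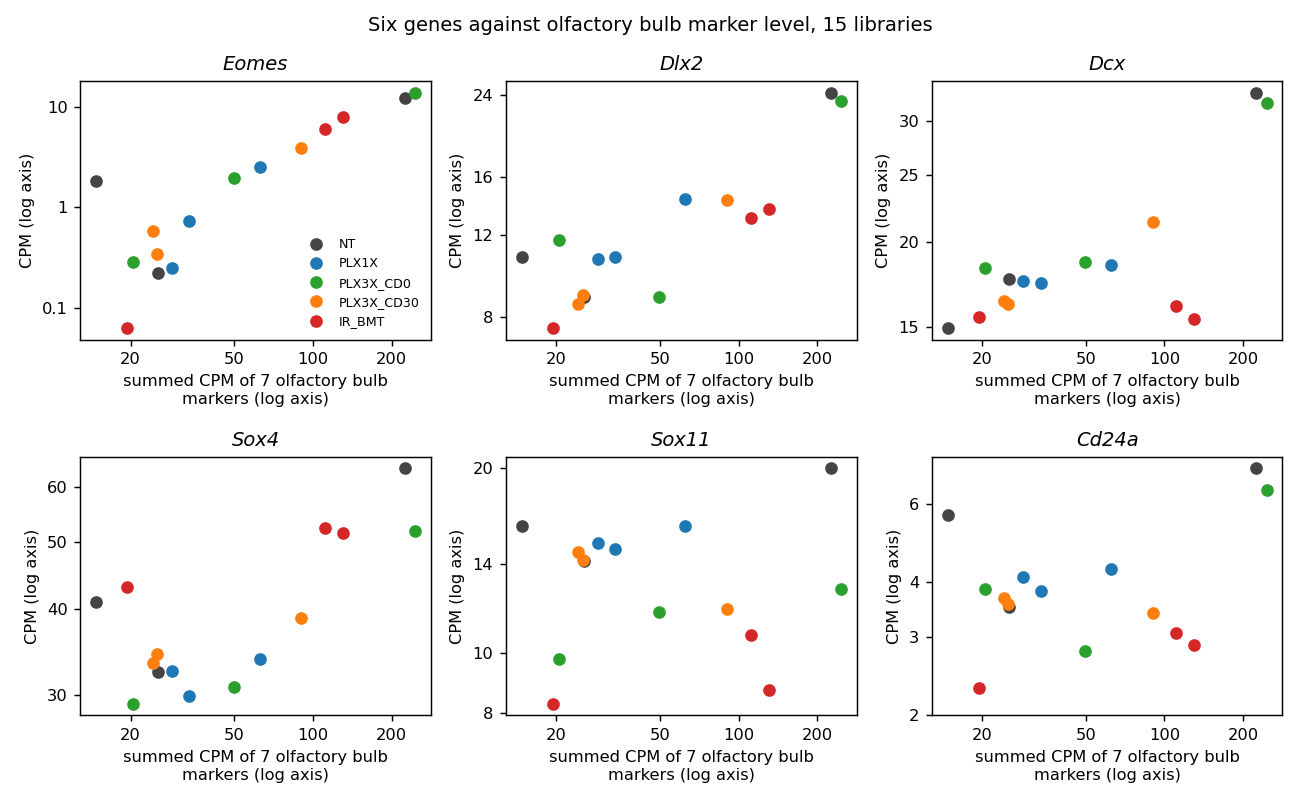
CPM of 6 of the genes (y axis, log scale) against the summed CPM of 7 olfactory bulb markers (x axis, log scale); each point is 1 library, coloured by group. The 2 highest levels of Eomes, Dlx2 and Dcx lie at the 2 highest marker levels, while the IR_BMT points of Dcx, Sox11 and Cd24a lie low at high marker levels and those of Sox4 do not.

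In PLX1X against NT none of the 9 genes was called, where 18.1% of all genes tested were; none had an unadjusted p under 0.05 by edgeR (31% of all genes tested did), and DESeq2 also called none. Sox4, at 33.8, 29.9 and 32.5 CPM in PLX1X, overlapped NT and passed, lower, with the covariate (log2 change -0.43, adjusted p = 0.0174; range over the alternatives 3.51e-08 to 0.650), a fit in which 10.2% of all genes were called lower.

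In PLX3X_CD0 against NT, Sox11 fell, at 9.81, 12.7 and 11.7 CPM against 16.1, 14.1 and 20.0 CPM in NT. The groups did not overlap, as in 16.7% of all genes in the same direction. The log2 change was -0.56 ± 0.13 (edgeR quasi-likelihood adjusted p = 0.00452), and over the alternatives the adjusted p stayed between 6.98e-05 and 0.0395. It was the 1 gene of 9 called, with 21.7% of all genes tested called and 9.53% lower. Sox4 at 29.2, 51.8 and 30.8 CPM joined it with the covariate (-0.39, adjusted p = 0.0279; range 0.00461 to 0.942; 11% of all genes lower). All of the 9 genes other than Sox11, Sox4 included, overlapped NT in this group.

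In PLX3X_CD30 against NT none of the 9 was called (6.57% of all genes tested were), by group means, with the covariate or by DESeq2. With the covariate 11.1% of all genes were called. By edgeR 2 of the 9 had an unadjusted p under 0.05 (21.3% of all genes tested did): Sox11, at 14.2, 14.6 and 11.8 CPM (log2 change -0.31, adjusted p = 0.175), and Cd24a, at 3.57, 3.68 and 3.42 CPM (-0.63, adjusted p = 0.182). All 4 comparisons against NT share the same 3 NT libraries, so their values are not independent.

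The groups other than NT allow comparisons of IR_BMT that do not use the NT means. The NT libraries still enter the estimate of spread, which all 15 libraries share. Sox11 was lower in IR_BMT than in PLX1X (16.1, 14.8 and 15.1 CPM), with no overlap (as in 21.5% of all genes, in this direction) and a log2 change of -0.73 ± 0.13 (edgeR quasi-likelihood adjusted p = 0.000430), the 1 gene of 9 called where 28.5% of all genes were. It was also lower than in PLX3X_CD30 (-0.55 ± 0.13, adjusted p = 0.00881; 16.5% of all genes called), a call that was lost without PLX3X_CD30 replicate 2 (0.0528) or IR_BMT replicate 3 (0.0538; range over the alternatives 0.000159 to 0.0538). Against PLX3X_CD0 the Sox11 change of -0.30 ± 0.13 did not pass (adjusted p = 0.124), and 0 of the 9 genes were called where 21.5% of all genes were. There edgeR gave 2 of the 9 an unadjusted p under 0.05 (32.8% of all genes), Sox11 and Cd24a, and DESeq2 called 0. In mean level the groups ran NT 16.7, PLX1X 15.3, PLX3X_CD30 13.5, PLX3X_CD0 11.4 and IR_BMT 9.24 CPM. No 2 neighbours in that order passed the test (adjusted p of 0.544, 0.612, 0.391 and 0.124).

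With the covariate, IR_BMT had lower Cd24a than PLX1X (log2 change -0.70, adjusted p = 0.0196; range over the alternatives 0.0105 to 0.472) and than PLX3X_CD0 (-0.65, 0.0296; range 0.00719 to 0.516). Cd24a stood at 4.30, 3.81 and 4.11 CPM in PLX1X, above all IR_BMT libraries, and at 3.87, 6.48 and 2.80 CPM in PLX3X_CD0, where they overlapped. By group means over all 15 libraries neither Cd24a difference passed (edgeR adjusted p = 0.138 and 0.0911). In a fit of only the 6 libraries compared, Cd24a passed against PLX1X (log2 change -0.59, edgeR adjusted p = 0.0105) but not against PLX3X_CD0. Sox4 went the opposite way and was higher in IR_BMT than in PLX1X with the covariate (0.47, adjusted p = 0.00783; range 1.22e-11 to 0.244), without overlap between the libraries, as in 22.8% of all genes. By group means the same Sox4 difference was 0.61 ± 0.26 and did not pass (edgeR adjusted p = 0.108). With only the 6 libraries compared it passed (0.59, edgeR adjusted p = 3.00e-05), in a fit that called 7147 of 19819 genes. Against PLX3X_CD0 Sox4 was likewise higher with the covariate (0.42, 0.0157; range 7.34e-05 to 0.615), and by group means it did not pass (0.40, 0.329). Against PLX3X_CD30 neither gene passed with the covariate (Cd24a -0.52, edgeR adjusted p = 0.121, and Sox4 0.32, 0.0843). There, with only the 6 libraries compared, Sox4 passed (0.46, edgeR adjusted p = 0.000722), in a fit that called 4860 of 19892 genes. With the covariate, 15.7% of all genes were called lower and 15.1% higher in IR_BMT than in PLX1X, and 14% lower and 12.2% higher than in PLX3X_CD0.

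Dcx in IR_BMT, at most 16.1 CPM, lay below every library of PLX1X (from 17.4 CPM), PLX3X_CD0 (from 18.3 CPM) and PLX3X_CD30 (from 16.2 CPM), and overlapped NT alone; 21.5%, 19.9% and 18.7% of all genes were lower without overlap in these 3 comparisons. By group means none of these Dcx differences passed. The log2 changes were -0.55 from PLX3X_CD0 (edgeR adjusted p = 0.214), -0.18 from PLX1X (0.701) and -0.20 from PLX3X_CD30 (0.716). With the covariate the difference from PLX3X_CD0 passed (log2 change -0.51, edgeR adjusted p = 0.00543, range over the alternatives 1.02e-06 to 0.642). Those from PLX1X (-0.33, 0.0624) and PLX3X_CD30 (-0.34, 0.0777) did not. Among the 3 PLX groups themselves none of the 9 was called by group means. The share of all genes called there was 2.46% for PLX3X_CD0 against PLX1X, 1.21% for PLX3X_CD30 against PLX1X and 3.8% for PLX3X_CD30 against PLX3X_CD0. By edgeR 1 of the 9 had an unadjusted p under 0.05 in the first of these (15.5% of all genes) and 0 in the other 2 (12.8% and 15.5%). DESeq2 called 1, 0 and 0. The gene was Sox11, lower in PLX3X_CD0 than in PLX1X by DESeq2 (adjusted p = 0.0307) and with the covariate (0.0160, a fit in which 1.26% of all genes were called lower; by group means -0.43 ± 0.13, 0.0922).

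Genes of dividing cells and of other stages of the neuronal lineage were read from lists. In bulk tissue the genes of dividing cells cannot be assigned to 1 cell type. Of 12 genes of dividing cells, 4 fell and 3 rose in IR_BMT against NT, where 15.4% of all genes tested were lower and 15.1% higher. Mki67, the proliferation antigen of cycling cells, stood at 3.19, 1.59 and 1.58 CPM in NT and at 0.631, 0.446 and 0.262 CPM in IR_BMT, below every NT library (log2 change -2.22, edgeR quasi-likelihood adjusted p = 0.000167). Top2a, the topoisomerase of dividing cells, stood at 1.57, 1.41 and 2.21 CPM against 0.757, 0.557 and 0.682 CPM, again without overlap (-1.39, edgeR adjusted p = 0.000866). Without the olfactory-rich libraries its log2 change was -0.96, not called. Aurkb and Rrm2 made up the 4 that fell. The 3 that rose, Mcm2 (0.59), Mcm5 (0.57) and Pcna (0.24), belong to the DNA replication machinery; Mcm2 stood at 5.43, 6.41 and 7.54 CPM in NT and 11.4, 8.64 and 9.47 CPM in IR_BMT. The list median was -0.66 against -0.05 for all genes tested. With the covariate the counts were also 4 and 3. The fit without the olfactory-rich libraries leaves 1 IR_BMT library, and its counts are not given. Of the same 12 genes, 0 were lower and 1 higher in PLX1X, 1 lower and 1 higher in PLX3X_CD0, and none was called in PLX3X_CD30, against the same NT libraries. Of all genes tested, 18.1%, 21.7% and 6.57% were called in these comparisons.

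Of 14 genes of neural stem and progenitor cells, 2 fell in IR_BMT and none rose (list median -0.11), a share near the 15.4% of all genes called lower. They were Hes5, a Notch target (log2 change -0.50, adjusted p = 0.0184; 0.0516 to 0.0892 on leaving out NT replicate 1 or 3 or IR_BMT replicate 1 or 2), and Prom1 (-0.45, 0.00678; 0.0637 without NT replicate 2), while Egfr and Sox2 had log2 changes of 0.04 and -0.16 that did not pass edgeR's test.

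Of 11 other genes of the GABAergic neuroblast lineage, 2 fell in IR_BMT and none rose (list median -0.65), a share near the 15.4% of all genes called lower. With the covariate 8 fell, where 16.9% of all genes did, and none rose (list median -0.80). Dlx6os1, a noncoding RNA of the Dlx5 and Dlx6 locus, stood at 20.6, 21.1 and 43.3 CPM in NT and 11.2, 13.4 and 15.6 CPM in IR_BMT, below every NT library (-1.09, edgeR quasi-likelihood adjusted p = 0.0201; 2.56e-08 with the covariate; range over the alternatives 9.00e-26 to 0.196). Dlx6 stood at 2.43, 2.25 and 4.22 CPM against 0.820, 1.53 and 1.99 CPM, without overlap (-1.04, 0.0131; range 0.000574 to 0.110). Neither passed without NT replicate 3 (0.0571 for Dlx6os1 and 0.110 for Dlx6) or without IR_BMT replicate 1 (0.0723 and 0.0702), and Dlx6os1 also not without IR_BMT replicate 2 (0.0626). The count of 2 became 0 without NT replicate 3 or IR_BMT replicate 1 and 4 without NT replicate 1. The fit without all 5 olfactory-rich libraries leaves 1 IR_BMT library, and its count is not given. In the PLX groups, 0 of 11 were called against NT by group means. Of all genes tested, 18.1% were called in PLX1X, 21.7% in PLX3X_CD0 and 6.57% in PLX3X_CD30. With the covariate 4 were lower in PLX3X_CD0, where 11% of all genes were. None was lower in PLX1X (10.2% of all genes lower) or PLX3X_CD30 (11.1% of all genes called).

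Of 7 tested genes of the glutamatergic lineage, 4 rose in IR_BMT and none fell, by group means (15.1% of all genes higher) and with the covariate (17%). The list median was 0.70, and those called were Neurod2 (log2 change 0.70), Tbr1 (0.73), Bhlhe22 (0.71) and Emx1 (0.83), with edgeR adjusted p of 0.000127, 0.000554, 0.000793 and 0.000462. These transcription factors are also expressed by mature cortical neurons. Tbr1 stood at 89.1, 89.6 and 67.1 CPM in NT and at 152, 133 and 123 CPM in IR_BMT, without overlap. Neurod4, Neurod6 and Nhlh2 did not pass, Nhlh1 was too low to be tested, and the glutamatergic members of the 9, Eomes and Neurod1, did not pass either. The difference between the lists of the GABAergic and glutamatergic lineages was not tested.

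**Figure D4:**
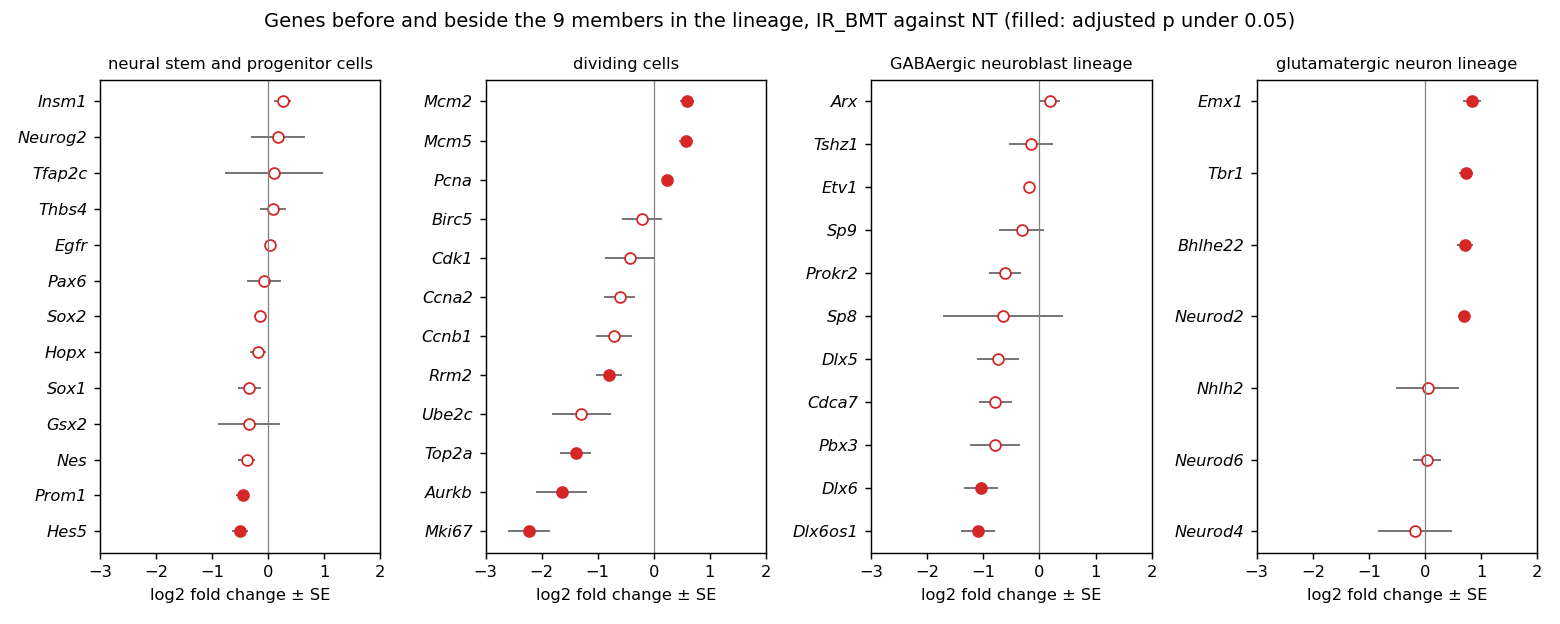
Log2 fold change of IR_BMT against NT (x axis, bars: SE) for tested genes of 4 lists, sorted within each list. Filled points have an adjusted p under 0.05 by edgeR. Mki67 and Top2a are filled on the left among genes of dividing cells, and Emx1, Tbr1, Bhlhe22 and Neurod2 on the right among genes of glutamatergic neurons.

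Of 23 genes of the growth cytoskeleton and adhesion of young neurons, 4 fell and 5 rose in IR_BMT (list median 0.10), shares near the 15.4% of all genes called lower and 15.1% called higher. The largest called fall was that of St8sia4, an enzyme that adds polysialic acid to the adhesion protein NCAM. It stood at 15.5, 11.6 and 15.5 CPM in NT and 9.21, 8.61 and 6.48 CPM in IR_BMT. Its log2 change was -0.81 (edgeR adjusted p = 0.000206), and -0.54, not called, without the olfactory-rich libraries. Tubb3, a neuronal tubulin that mature neurons keep, rose from 224, 260 and 308 CPM to 390, 419 and 440 CPM (0.66, 9.63e-06). Tubb2b (0.42) and Mex3b (0.66) also rose. Of 13 migration genes, 5 rose and none fell (list median 0.19), with sums of 1357 to 1362.5 CPM in IR_BMT and 1084 to 1196 CPM in NT. Slit1, a repellent guidance ligand, went from 39.3, 37.0 and 38.2 CPM to 71.5, 71.0 and 69.0 CPM (0.89, edgeR adjusted p = 1.62e-07). Robo2, a receptor for Slit ligands, rose by 0.42 (0.00269), and by 0.45, not called, without the olfactory-rich libraries. Cdk5 and its activator Cdk5r1 rose by 0.28 and 0.29 (edgeR adjusted p = 0.000133 and 0.00127). Without the olfactory-rich libraries Cdk5 rose by 0.23, not called. Cdk5r1 was not called with the offset for length and GC content (edgeR adjusted p = 0.176). Against NT, 4 of the 13 migration genes were higher in PLX1X, 6 in PLX3X_CD0 and 2 in PLX3X_CD30, and none was lower. Their sums were 1266 to 1319, 1355 to 1416 and 1255 to 1282.5 CPM in these groups. Of the 23 young neuron genes, 4 were higher and 2 lower in PLX1X, 3 and 5 in PLX3X_CD0, and 1 and 0 in PLX3X_CD30. Of all genes tested, 18.1%, 21.7% and 6.57% were called in these comparisons.

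Other cell types also differed between IR_BMT and NT, and these values stand beside all results above. Their part in those results was not tested. Of all genes tested, 15.4% were called lower and 15.1% higher in this comparison. Of 9 striatal projection neuron genes 6 fell (list median -0.72), among them Tac1 (-1.15), Ppp1r1b (-0.81), Drd1 (-0.83) and Penk (-0.83), and their sum was 1571 to 2397 CPM in IR_BMT and 2862 to 3124 CPM in NT. Of 6 thalamic genes 3 fell (Lef1, Plekhg1 and Tcf7l2), with NT replicate 1 at 263 CPM and all libraries of the other groups at most 110 CPM; none of the 3 passed in every alternative. Of 7 microglial genes 6 fell, as with P2ry12 (-1.59), and the sum was 418 to 495 CPM in NT, 173 to 191 CPM in IR_BMT, 39.1 to 64.0 CPM in PLX1X, 36.3 to 69.1 CPM in PLX3X_CD0 and 174 to 183 CPM in PLX3X_CD30. The interneuron gene Gad2 (-0.50) and Prox1 (-0.61), a factor of dentate granule neurons, were the called members of their lists of 8 and 7, both lower. The list medians were -0.06 for interneurons and 0.51 for dentate granule neurons, the latter opposite in sign to Prox1. With the covariate 3 interneuron genes were lower and 1 higher, and 1 dentate granule gene was lower and 1 higher. Of 5 mature neuron genes 3 rose: Slc17a7 (0.84), Syt1 (0.41) and Rbfox3 (0.25). Rbfox3 was not called without the olfactory-rich libraries (log2 change 0.25) or with the offset for length and GC content, where its log2 change was -0.000422. Astrocyte markers summed to 2905 to 3164 CPM in IR_BMT and 2622 to 3344 CPM in NT. Of 5 astrocyte genes 2 fell, Gja1 (-0.24) and Slc1a3 (-0.23), and with the covariate 2 were lower and 2 higher. Gja1 stood at 0.0161 with that offset and was not called without the olfactory-rich libraries (log2 change -0.22), and Slc1a3 lost its call in 9 of 15 alternatives. Cspg4 (0.63), a gene of oligodendrocyte precursors, rose, and Enpp6 (-0.54) and Gpr17 (-0.31), genes of newly formed oligodendrocytes, fell. Gpr17 was not called without the olfactory-rich libraries (log2 change -0.22). None of the 7 olfactory bulb genes was called (list median -0.08). That median ranged from -0.59 without NT replicate 2 to 2.11 without NT replicate 3.

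Per length of transcript, the mean level over the 15 libraries ran from Dlx1 (9.30 CPM per kilobase) and Sox4 (8.33) through Dlx2 (5.11), Neurod1 (3.83), Cd24a (2.23), Dcx (2.12) and Sox11 (1.59) to Eomes (0.978) and Igfbpl1 (0.435). The genes outside the set whose log2 CPM followed Dcx most closely over the 15 libraries were Fam184a (r = 0.94), Synpr (0.92), Ppfibp1 (0.91), Igf1 (0.91) and Prune2 (0.91). Those most like the mean of the 9 were Fam184a (0.94), Isoc1 (0.93), Sp7 (0.93), Filip1l (0.92) and Pbx3 (0.90). With the olfactory bulb level these 9 genes had r between 0.66 and 0.82 over the same libraries, and values of 1 library share its depth and tissue piece. The mean standardised level of the 9 was highest in the most olfactory-rich libraries, NT replicate 3 (1.45) and PLX3X_CD0 replicate 2 (1.24), and lowest in IR_BMT replicate 1 (-1.01).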

How the data were processed

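Per the labels' protocols, cDNA was made from total RNA of frozen forebrain with a SMARTer Ultra Low kit, which does not mark strand. The authors deposited raw counts per gene and the same counts as CPM; the deposited CPM equalled count over library total, and the tests used the counts. DRAGEN, DESeq2 and the build mm10 are named, with no version or role, per the submitters' processing notes. Of 55774 rows, 287 repeated an identifier with identical counts and were removed. Positions came from GENCODE mouse release 21. Even numbers made up 70.6% to 74.7% of the counts from 1 to 4 per library, so a count can be worth less than 1 fragment.

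Libraries were grouped by library name. The tests were run in R 4.3.3 with edgeR 4.0.16 (TMM, filterByExpr, 1 mean per group over all 15 libraries, robust quasi-likelihood F-tests, two-sided, Benjamini-Hochberg over 21780 genes, threshold 0.05); standard errors are the log2 change divided by √F. The common biological coefficient of variation was 12.1%. The procedure was tested on simulated data. The 9 genes and the gene lists were chosen with earlier results of these data known. Named genes are all 9, up to 4 per list with the smallest adjusted p in IR_BMT against NT, and the 5 most correlated with Dcx or with the mean of the 9 at an average log2 CPM of at least 1. Other list genes named as members of a small count, or for not passing, were chosen after their values were seen. Alternatives were DESeq2 1.42.0, RLE factors, no filter and a stricter one (3 libraries with CPM of 1 or more), the 6 libraries compared, a replicate block, leaving out each library, a loess offset (span 0.3) on length and GC content, and, chosen after seeing the data, the olfactory bulb covariate and leaving out the olfactory-rich libraries (above 2 times the median). Some list genes are not reported here.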

Additional observations from a re-analysis of the deposited data

How the results depend on the processing

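Of the 9 genes' log2 changes in 10 comparisons, 1286 values under the alternatives kept direction and side of the threshold or stayed uncalled, 59 passed where the reported value had not, 5 no longer passed and 0 reversed a called direction; sign changes of uncalled values are not counted. The 5 are those of Cd24a in IR_BMT against NT and of Sox11 in IR_BMT against PLX3X_CD30 given above. Most of the 59 came from the fit without a filter on low counts. That fit also gave low ends of ranges above, by edgeR adjusted p. For Dcx these were 1.37e-05 in IR_BMT against NT and 1.02e-06 against PLX3X_CD0, and for Igfbpl1 7.83e-06. For Sox4 they were 3.51e-08 in PLX1X against NT and 1.22e-11 in IR_BMT against PLX1X. It gave Eomes 1.90e-18 in PLX1X against NT, where the reported adjusted p was 0.468.

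The number of the 9 called was 2 in IR_BMT against NT and became 6 without a filter, 5 with the covariate, 1 without the olfactory-rich libraries and 1 to 3 on leaving out 1 library. In PLX1X against NT it was 0, and 4 without a filter and 1 with the covariate. In PLX3X_CD0 against NT it was 1, and 3 without a filter, 2 with the covariate and 1 to 2 on leaving out 1 library. In PLX3X_CD30 against NT it was 0, and 7 without a filter and 0 to 1 on leaving out 1 library. In IR_BMT against PLX1X it was 1, and 5 without a filter, 3 with the covariate, 2 without the olfactory-rich libraries and 3 in the 6 libraries compared. In IR_BMT against PLX3X_CD0 it was 0, and 4 without a filter, 3 with the covariate, 1 without the olfactory-rich libraries and 0 to 1 on leaving out 1 library. In IR_BMT against PLX3X_CD30 it was 1, and 3 without a filter, 2 in the 6 libraries compared and 0 to 1 on leaving out 1 library. In PLX3X_CD0 against PLX1X it was 0, and 4 without a filter and 1 each with the covariate, without the olfactory-rich libraries, in the 6 libraries compared and by DESeq2. In PLX3X_CD30 against PLX3X_CD0 it was 0, and 3 without a filter. Without a filter, of 40275 genes, 6612, 4211, 5003 and 2034 were called against NT in IR_BMT, PLX1X, PLX3X_CD0 and PLX3X_CD30. In that fit 6110, 4742 and 3736 were called in IR_BMT against PLX1X, PLX3X_CD0 and PLX3X_CD30. It called 1186 in PLX3X_CD0 against PLX1X and 1395 in PLX3X_CD30 against PLX3X_CD0. With the covariate, of 21780 genes, 7370, 4984 and 5560 were called against NT in IR_BMT, PLX1X and PLX3X_CD0. The covariate fit called 6718 and 5690 in IR_BMT against PLX1X and PLX3X_CD0, and 914 in PLX3X_CD0 against PLX1X. In the 6 libraries compared, 7147 of 19819 genes were called in IR_BMT against PLX1X and 4860 of 19892 in IR_BMT against PLX3X_CD30. In PLX3X_CD0 against PLX1X that setting called 759 of 20633, and DESeq2 called 1065 of 21780. The cause of the moves in the counts of the 9 was not tested. With the offset for length and GC content the astrocyte gene Gja1 and the neuron gene Rbfox3 turned, to log2 changes of 0.0161 and -0.000422. On leaving out single libraries, Penk lost its call with 4 of 6 (NT replicates 2 and 3, IR_BMT replicates 1 and 2), Gad2 with 4 (NT replicates 1 and 3, IR_BMT replicates 1 and 2), Drd1 with 2 (IR_BMT replicates 1 and 2), Slc1a3 with 5 (all but NT replicate 1) and Prox1 with 1 (IR_BMT replicate 3).

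Over all genes, the count called, with its range over the alternatives, was in IR_BMT against NT 6658 (3269 to 7370), in PLX1X against NT 3939 (2143 to 4984), in PLX3X_CD0 against NT 4732 (2601 to 5560), in PLX3X_CD30 against NT 1432 (359 to 2427), in IR_BMT against PLX1X 6197 (2572 to 7147), in IR_BMT against PLX3X_CD0 4687 (834 to 5690), in IR_BMT against PLX3X_CD30 3597 (426 to 4860), in PLX3X_CD0 against PLX1X 536 (150 to 1186), in PLX3X_CD30 against PLX1X 263 (100 to 814) and in PLX3X_CD30 against PLX3X_CD0 828 (384 to 1395). Without the olfactory-rich libraries 1 IR_BMT library is left, assumed to vary like the other groups, and the count in IR_BMT against NT was 3269. With the length and GC offset the share of calls that were higher was 41.8% instead of 72.8% in PLX3X_CD0 against PLX1X and 64.2% instead of 49.2% in PLX3X_CD30 against PLX3X_CD0. Same-numbered libraries did not pair: their deviations had r of -0.09 to 0.23, and in no comparison were all 3 pairs above 0.1. With the replicate number as a block the counts of the 9 called were the same (2 in IR_BMT against NT), and between 0 and 5 of 6 libraries per comparison resembled most the one of their own number. Low counts limit the precision for genes near or below 1 CPM in some libraries, such as Eomes, Igfbpl1, Mki67, Top2a and Dlx6.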
